A study of Rattus norvegicus with 12 samples.

Results

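The genes described here are cell cycle and DNA replication genes, a set of 50 chosen by name, of which 47 were measured among the 14217 genes of the arrays. They were taken as 20 genes of the G1 and S phases, when a cell commits to division and copies its DNA, and 27 genes of the G2 phase and mitosis (G2/M), when it prepares for and carries out division. Cdc6, Rrm2 and Tpx2 were not analysed here. The tissue was liver of rats, and every rat is labelled male and free of specific pathogens. Tumor and nontumor tissue came from Long Evans Cinnamon rats (LEC/Crj) at 67 weeks of age, with 4 arrays each. Long Evans Agouti (LEA) rats of 67 weeks gave 1 control array, and LEC rats of 4, 26 and 39 weeks gave 1 array per age. LEC rats carry a defect of the copper transporter Atp7b, load the liver with copper and develop hepatitis and later liver tumors, so nontumor tissue of a LEC rat is not healthy liver. Tumor and nontumor specimens were paired, and RNA for a pool came from 2 pairs randomly selected from the 8. Each tumor array held such a mix from tumors, and each nontumor array a mix from the tissue beside the tumors. The labels do not say which tumor and nontumor arrays share pairs, so the model used here takes the pools as unpaired. The numbers of rats in the other pools are not given. P-values therefore measure the spread between pools, in the LEC groups with replicates.

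Division is driven by cyclins and the cyclin-dependent kinases (CDKs) they activate. D cyclins with Cdk4 or Cdk6, and then E cyclins with Cdk2, release E2F factors from the RB proteins, and E2F switches on the genes of DNA replication, among them the MCM helicase that unwinds DNA and Pcna, the clamp that holds DNA polymerase. Genes of G2 and mitosis are switched on later, through the MuvB complex with B-Myb and FOXM1, and serve cyclin B, Cdk1, the spindle and its checkpoint. In a healthy adult liver few hepatocytes divide, and loss of tissue brings them back into the cycle.

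Values are log2 expression values, so a difference of 1 is a 2-fold change, and a gene is represented by its brightest probe set. Some arrays stood apart or went against their labels. Xist, which is made by female cells, was 5.27 at 26 weeks and 5.67 at 39 weeks, and from 11.36 to 13.12 on every other array. The Y-linked Eif2s3y was 8.90 at 26 weeks and 8.18 at 39 weeks, and from 3.65 to 3.81 elsewhere, so age beyond 4 weeks and this difference cannot be told apart. Nontumor arrays 1 and 2 differed from nontumor arrays 3 and 4 in the G2/M genes, as described below. The liver markers were present: the median of 8 hepatocyte markers lay between 13.20 and 13.53 on every array outside the tumor group and between 9.12 and 13.19 on the tumor arrays. Probe sets for bacterial RNA that should be absent reached 5.52 to 5.67 on the tumor arrays, 5.88 to 6.01 on the nontumor arrays, 6.11 on the LEA array and 6.15 to 6.22 on the arrays of 4, 26 and 39 weeks. A value under that level on its own array is called dim here, and 10 of the 47 genes were dim on at least 1 array.

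Promoter letters of the 2 phases are shown before the values. In the 250 bases before the RefSeq start of the gene (assembly GRCr8), 39 of the 47 genes had an entry, 15 of G1/S and 24 of G2/M. Searched on both strands, the cell cycle homology region (CHR, TTTGAA), to which MuvB binds, was present in 10 of 24 G2/M promoters (41.7%) and 1 of 15 G1/S promoters (6.67%), against 16.0% of all 27457 promoters and 10.9% of the 11733 promoters of measured genes. CCAAT, the box of the factor NF-Y, was present in 19 of 24 G2/M promoters (79.2%) and 9 of 15 G1/S promoters (60.0%), against 34.3% of all promoters. All 10 G2/M promoters with CHR held CCAAT too, as did 1581 of the 4402 promoters with CHR among all promoters. Both motifs were thus present in 41.7% of G2/M promoters, against 5.76% of all promoters. An E2F motif (TTCGCGC, with the variants TTGGCGC, also TTCCCGC, also TTGCCGC) was present in 7 of 15 G1/S promoters (46.7%) and 3 of 24 G2/M promoters (12.5%), against 7.97% of all promoters and 12.6% of those of measured genes. These are matches of letters, not sites, and G and C made up a median of 60.0%, 57.4% and 52.0% of the G1/S, G2/M and all promoters. The stretches below belong to the 6 genes with a CHR or E2F match and the largest tumor differences among those given in full, and capitals mark CHR, CCAAT and E2F letters on either strand. They lie at chr8:71320652-71320678, minus strand (Kif23), chr1:199952651-199952788, minus strand (Mki67), chr15:22502231-22502367, plus strand (Cdkn3), chr8:79981659-79981878, minus strand (Ccnb2), chr13:42404385-42404496, minus strand (Mcm6) and chr4:122918095-122918315, minus strand (Mcm2), and each runs 5′ to 3′ toward its gene. In Kif23 a CCAAT box, read as ATTGG, stands just before CHR. In Mki67 the downstream CHR and a CCAAT box share a base, and in Mcm6 and Mcm2 each run of capitals that ends in GCGCGAA is a pair of E2F matches on opposite strands that overlap. Mcm2 is the G1/S gene with CHR.
Kif23: tcgctgATTGGcctgTTTGAAatgcgc
Mki67: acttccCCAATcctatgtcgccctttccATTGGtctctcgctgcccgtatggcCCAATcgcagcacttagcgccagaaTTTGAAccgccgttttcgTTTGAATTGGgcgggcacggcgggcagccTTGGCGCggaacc
Cdkn3: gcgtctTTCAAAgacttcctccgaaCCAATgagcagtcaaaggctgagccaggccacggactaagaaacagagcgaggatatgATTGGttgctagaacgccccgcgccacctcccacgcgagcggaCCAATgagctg
Ccnb2: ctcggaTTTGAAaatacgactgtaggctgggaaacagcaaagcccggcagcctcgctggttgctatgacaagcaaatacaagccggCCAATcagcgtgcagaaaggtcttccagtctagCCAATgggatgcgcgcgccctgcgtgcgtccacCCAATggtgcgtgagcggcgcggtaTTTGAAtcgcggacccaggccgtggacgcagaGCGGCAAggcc
Mcm6: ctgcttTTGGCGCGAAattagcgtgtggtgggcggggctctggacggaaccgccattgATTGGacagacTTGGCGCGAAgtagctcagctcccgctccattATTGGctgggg
Mcm2: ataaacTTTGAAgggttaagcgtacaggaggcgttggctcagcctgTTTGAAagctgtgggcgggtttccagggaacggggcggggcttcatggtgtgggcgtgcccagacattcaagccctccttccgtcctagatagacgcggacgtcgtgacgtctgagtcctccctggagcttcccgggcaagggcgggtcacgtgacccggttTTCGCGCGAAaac

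Of the 47 genes, 28 were higher and 2 lower in tumor than in nontumor tissue at 67 weeks (limma over all 12 arrays, adjusted p under 0.05 by Benjamini-Hochberg over 31042 probe sets). Tumor shifted much of the transcriptome: 38.8% of all genes were called higher and 29.2% lower. Of the G1/S genes 14 were higher, 2 lower and 4 not called, with a median difference of 1.04, and of the G2/M genes 14 were higher, 0 lower and 13 not called, with a median difference of 0.60. The median over all genes was 0.07. In tumor 14 of 20 G1/S genes and 12 of 27 G2/M genes lay above every nontumor array without overlap, as 36.1% of all genes did. On the tumor arrays the median of the G1/S genes lay between 8.79 and 8.91, against 8.33, 8.43, 8.28 and 8.28 on nontumor arrays 1 to 4. The G2/M median lay between 8.19 and 8.495 on the tumor arrays, against 7.22, 7.15, 8.10 and 8.21 on nontumor arrays 1 to 4.

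**Figure D1:**
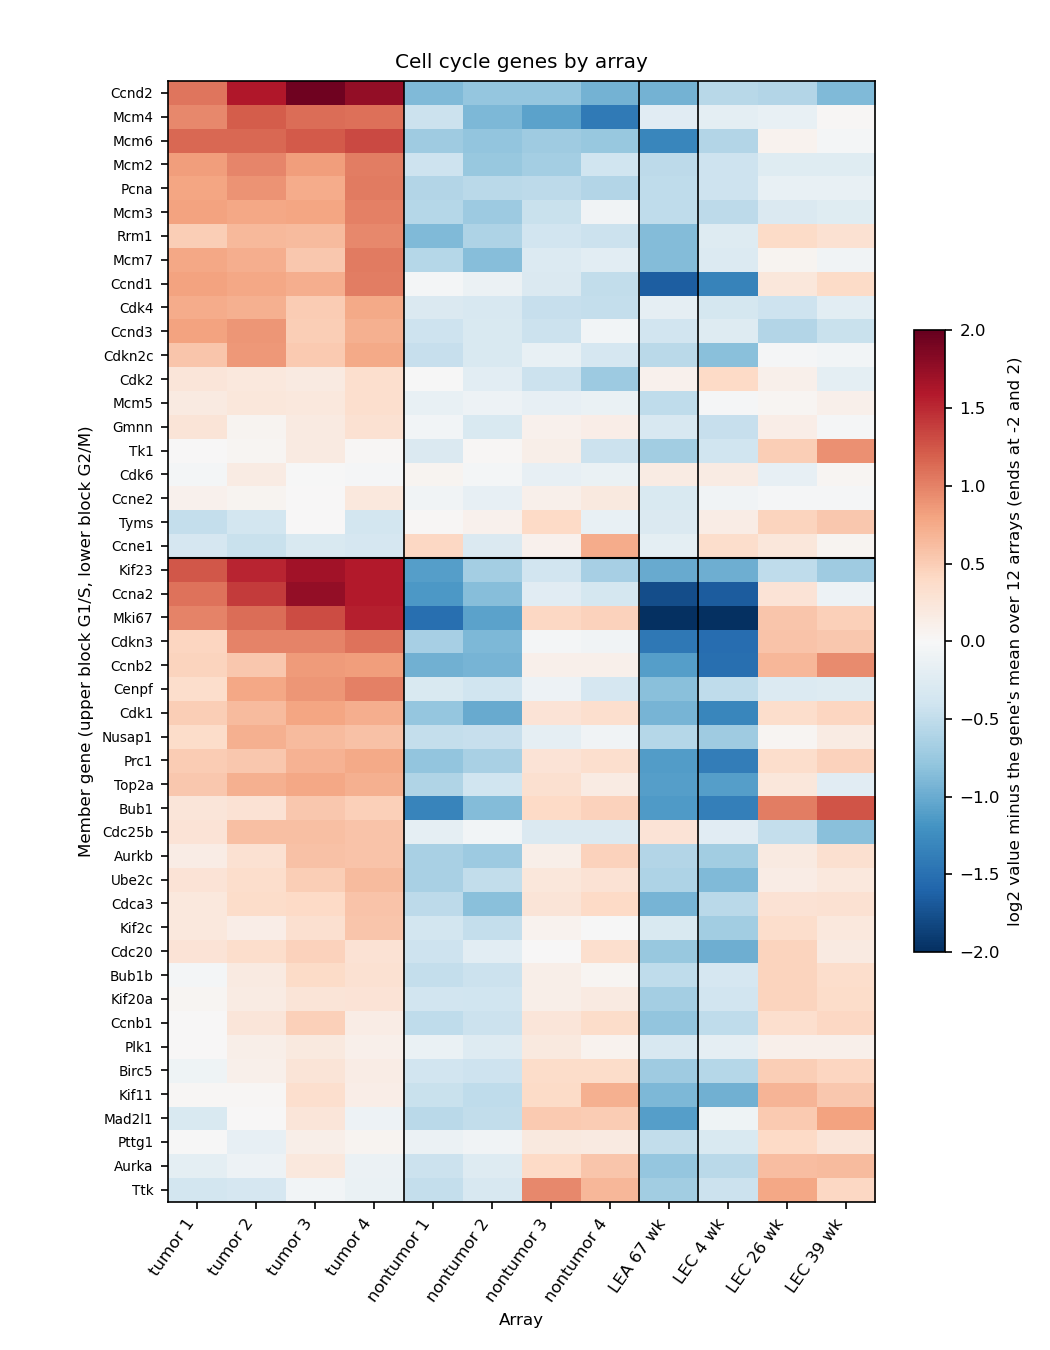
Heat map of 47 genes (rows, G1/S above and G2/M below the line, each ordered by the difference of tumor and nontumor) on 12 arrays (columns), as the log2 value minus the gene's mean over the 12 arrays. The MCM genes, Pcna and Ccnd2 are high on the tumor arrays, while many G2/M genes are also high on nontumor arrays 3 and 4 and on the arrays of 26 and 39 weeks.

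All 6 measured subunits of the MCM helicase were higher in tumor, with a median difference of 1.39, and none of them overlapped between the groups. Mcm6 had log2 values of 8.71, 8.71, 8.78 and 8.88 on tumor arrays 1 to 4 and 6.84, 6.77, 6.85 and 6.81 on nontumor arrays 1 to 4. The groups lay 1.95 ± 0.07 (SE) apart, a 3.87-fold difference (adjusted p = 6.15e-07 by limma), far beyond the spread within either group. Mcm4 had 8.34, 8.59, 8.503 and 8.49 on tumor arrays 1 to 4 and 6.95, 6.48, 6.31 and 5.98 on nontumor arrays 1 to 4, the last of which was dim. Its difference was 2.05 ± 0.18 (SE), or 4.15-fold (limma adjusted p = 2.79e-05), and its nontumor values spread more widely than those of Mcm6. Mcm2 had 9.502, 9.63, 9.49 and 9.68 on tumor arrays 1 to 4 and 8.25, 7.90, 7.98 and 8.26 on nontumor arrays 1 to 4, and Mcm3 had 8.60, 8.58, 8.59 and 8.80 on tumor arrays 1 to 4 and 7.23, 7.07, 7.35 and 7.73 on nontumor arrays 1 to 4. Both were separate between the groups, with differences of 1.48 ± 0.10 (SE) and 1.30 ± 0.14 (SE) (limma adjusted p = 7.94e-06 and 6.93e-05). Mcm7 was higher by 1.25 and Mcm5 by 0.37, the smallest difference of the complex, which was 0.09 and not called when the arrays were quantile normalized again. On the array of each age the 6 subunits had a median of 7.77 at 4 weeks, 8.02 at 26 weeks and 7.99 at 39 weeks, against 8.75 to 8.91 on the tumor arrays.

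Other replication genes of G1/S did not all follow. Pcna, the polymerase clamp, had 11.58, 11.70, 11.55 and 11.83 on tumor arrays 1 to 4 and 10.21, 10.26, 10.27 and 10.21 on nontumor arrays 1 to 4, 1.43 ± 0.08 (SE) apart or 2.69-fold (limma adjusted p = 2.9e-06). The 2 groups were separate, and the nontumor arrays agreed within an SD of 0.03. Rrm1, the large subunit of the enzyme that makes deoxynucleotides, was higher by 1.26 ± 0.14 (SE). Thymidylate synthase, Tyms, which makes thymidylate for DNA, went the other way, with 7.12, 7.23, 7.60 and 7.23 on tumor arrays 1 to 4 and 7.63, 7.69, 8.00 and 7.45 on nontumor arrays 1 to 4. Its difference of -0.40 ± 0.14 (SE) was called (limma adjusted p = 0.034), but tumor array 3 lay within the nontumor range, and the call was lost without tumor array 1, 2 or 4 or without nontumor array 1, 2 or 3, with adjusted p of 0.00633 to 0.0914 over the settings tried. Thymidine kinase Tk1 (0.20) and Gmnn, the inhibitor of repeated licensing (0.23), were not called. A further probe set of Tk1 was called lower, without overlap (-0.57), and another was not called (-0.10).

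All 3 D cyclins, which open the G1 phase in answer to growth signals, were higher in tumor. Ccnd2 had the largest difference of the 47 genes, with 10.40, 10.92, 11.27 and 11.08 on tumor arrays 1 to 4 and 8.44, 8.55, 8.55 and 8.38 on nontumor arrays 1 to 4. That was 2.43 ± 0.17 (SE), or 5.41-fold (limma adjusted p = 8.2e-06), and tumor array 1 was the lowest of the tumor arrays. Ccnd1 had 12.43, 12.39, 12.34 and 12.64 on tumor arrays 1 to 4 and 11.58, 11.51, 11.33 and 11.13 on nontumor arrays 1 to 4, 1.07 ± 0.12 (SE) apart (limma adjusted p = 8.25e-05), without overlap, and both of its other probe sets were called higher. Ccnd3 was higher by 1.02. Their kinase Cdk4 was higher by 1.06 and Cdk2, the partner of E cyclins, by 0.59, while Cdk6 was dim on all nontumor arrays and was not called (0.09). Cdkn2c, an inhibitor of Cdk4 and Cdk6, was also higher, by 0.98, but its other probe set was called lower (-0.49). Cyclin E1, Ccne1, was lower in tumor, with 7.21, 7.11, 7.24 and 7.22 on tumor arrays 1 to 4 and 7.96, 7.26, 7.64 and 8.30 on nontumor arrays 1 to 4. Every tumor value lay below every nontumor value, as for 27.7% of all genes, and the nontumor arrays spread over an SD of 0.44 against 0.06 in tumor. The difference was -0.59 ± 0.19 (SE) (limma adjusted p = 0.0245), and it was no longer called without tumor array 1, tumor array 2 or nontumor array 1, with adjusted p of 0.00248 to 0.0915 over the settings tried. Cyclin E2, Ccne2, was not called (0.08), but its further probe set, dim on 10 of the 12 arrays, was called higher (0.498).

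**Figure D2:**
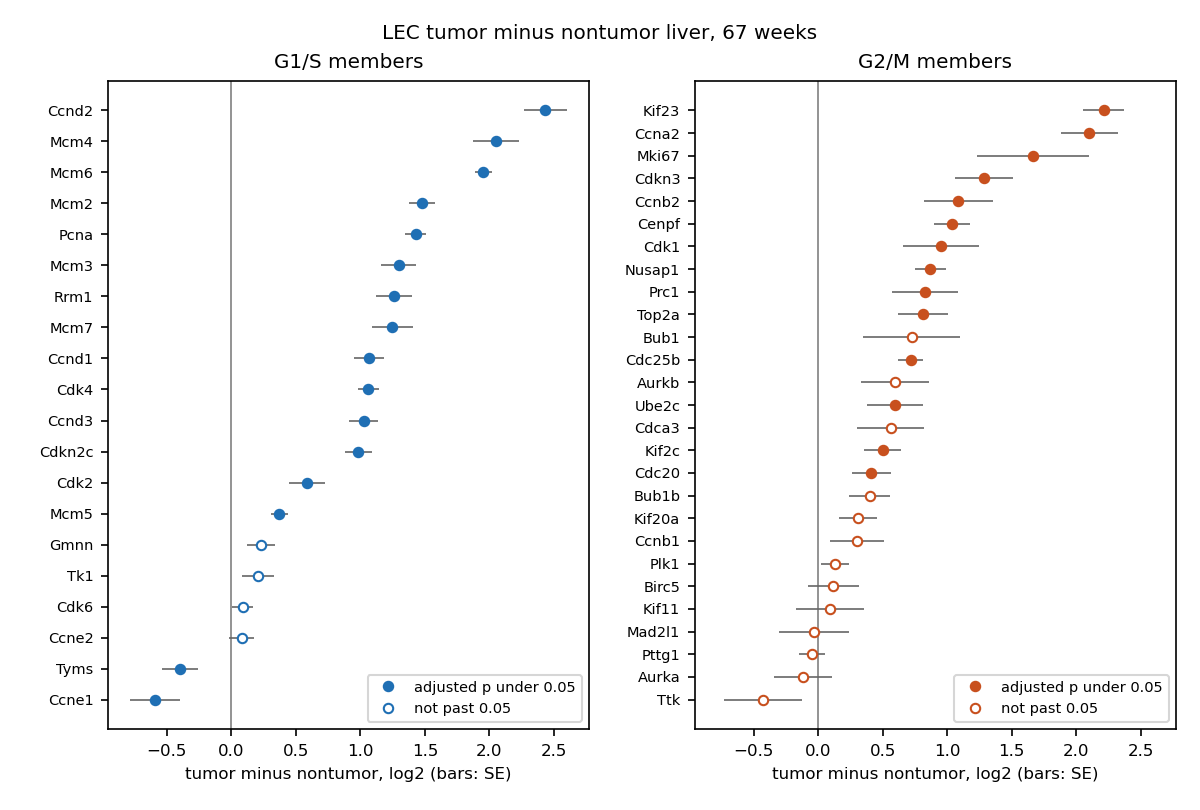
Difference of tumor minus nontumor at 67 weeks for each gene (log2, points with SE bars), G1/S genes on the left and G2/M genes on the right, with filled points where the adjusted p was under 0.05. Among G1/S genes, Ccne1 and Tyms are the called genes below 0, and in G2/M the genes of the spindle checkpoint and the Aurora kinases carry open points. The point of Ccna2 is set against dim values on 3 nontumor arrays, that of Cdk6 on 4, that of Bub1b on 2 and those of Mcm4, Bub1 and Kif23 on 1.

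The mitotic genes were mixed. Kif23, a kinesin of the midzone where the dividing cell is cut in 2, had 8.29, 8.57, 8.73 and 8.64 on tumor arrays 1 to 4 and 5.95, 6.37, 6.67 and 6.39 on nontumor arrays 1 to 4, of which nontumor array 1 was dim. Its difference was 2.21 ± 0.16 (SE), or 4.63-fold (limma adjusted p = 9.14e-06), without overlap, but its second probe set was not called (-0.07). Cyclin A2, Ccna2, which works in S phase and G2, had 7.37, 7.68, 8.04 and 7.87 on tumor arrays 1 to 4 and 5.13, 5.43, 6.06 and 5.94 on nontumor arrays 1 to 4. Nontumor arrays 1, 2 and 4 were dim, so that 1 of the 4 nontumor arrays measured it. On the values as they stand, dim ones included, Ccna2 was called higher in tumor (limma adjusted p = 7.27e-05). With those 3 arrays at their dim level, tumor was at least 3.34-fold higher, a bound that was not tested. The centromere protein Cenpf had 7.99, 8.41, 8.53 and 8.65 on tumor arrays 1 to 4 and 7.34, 7.25, 7.54 and 7.31 on nontumor arrays 1 to 4, a difference of 1.04 ± 0.14 (SE) without overlap (limma adjusted p = 0.000302). Nusap1, which binds spindle microtubules, had 8.85, 9.19, 9.12 and 9.07 on tumor arrays 1 to 4 and 8.01, 8.03, 8.31 and 8.42 on nontumor arrays 1 to 4, 0.87 ± 0.12 (SE) apart (limma adjusted p = 0.000297), with a second probe set that was not called. The phosphatase Cdc25b, which activates Cdk1, was higher by 0.71.

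For Mki67, Cdk1, Ccnb2, Cdkn3, Top2a and Prc1 the nontumor group fell into a low and a high pair of arrays. Of the called G2/M genes above, Kif23, Nusap1 and the mostly dim Ccna2 also had nontumor arrays 3 and 4 above arrays 1 and 2. Cenpf and Cdc25b did not. Mki67, the proliferation antigen Ki-67, had 8.96, 9.09, 9.28 and 9.53 on tumor arrays 1 to 4 and 6.47, 6.90, 8.39 and 8.44 on nontumor arrays 1 to 4. The tumor arrays were above all nontumor arrays, 1.67 ± 0.43 (SE) apart or 3.17-fold (limma adjusted p = 0.00906), but nontumor arrays 3 and 4 averaged 1.73 above nontumor arrays 1 and 2. Cdk1, the kinase that starts mitosis, had 8.64, 8.77, 8.93 and 8.88 on tumor arrays 1 to 4 and 7.37, 7.15, 8.41 and 8.49 on nontumor arrays 1 to 4, with the same pair high. Its difference was 0.95 ± 0.30 (SE) (limma adjusted p = 0.0203), which was not called without nontumor array 1. Its partner cyclin B2, Ccnb2, had 8.02, 8.12, 8.42 and 8.41 on tumor arrays 1 to 4 and 6.62, 6.65, 7.68 and 7.68 on nontumor arrays 1 to 4, 1.09 ± 0.27 (SE) apart (limma adjusted p = 0.00698). Cdkn3, a phosphatase that acts on Cdk1 and Cdk2, had 7.73, 8.30, 8.29 and 8.38 on tumor arrays 1 to 4 and 6.64, 6.41, 7.27 and 7.24 on nontumor arrays 1 to 4, 1.29 ± 0.22 (SE) apart (limma adjusted p = 0.00115). All 4 of these genes were separate between the groups. Top2a, the topoisomerase that untangles chromosomes, had 9.02, 9.20, 9.25 and 9.19 on tumor arrays 1 to 4 and 7.88, 8.08, 8.80 and 8.65 on nontumor arrays 1 to 4, 0.81 ± 0.20 (SE) apart (limma adjusted p = 0.00623), and its second probe set was called higher too. Prc1, which bundles midzone microtubules, had 9.26, 9.30, 9.44 and 9.502 on tumor arrays 1 to 4 and 7.97, 8.11, 9.03 and 9.09 on nontumor arrays 1 to 4, 0.83 ± 0.26 (SE) apart (limma adjusted p = 0.0194). Without nontumor arrays 1 and 2 these differences were 0.80 for Mki67, 0.36 for Cdk1, 0.57 for Ccnb2, 0.92 for Cdkn3, 0.44 for Top2a and 0.32 for Prc1, and without nontumor arrays 3 and 4 they were 2.53, 1.55, 1.61, 1.65, 1.18 and 1.34. Cdc20 (0.41), Ube2c (0.60) and Kif2c (0.50) were called by smaller differences. The calls of Cdc20 and Ube2c were lost without each tumor array in turn and without nontumor array 1 or 2, that of Cdc20 also without nontumor array 3, and the further probe set of Kif2c was called lower (-0.44). Of 4 further probe sets of Cdc20, 1 was called higher (0.37), 1 lower (-0.32) and 2 were not called.

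The spindle checkpoint, which holds mitosis until every chromosome is attached, had 0 of 4 genes called by limma, and the Aurora kinases with survivin, which correct attachments, had 0 of 3. At an unadjusted p under 0.05, 1 gene of each was higher in tumor, as for 40.3% of all genes. The checkpoint kinase Ttk had 6.996, 7.03, 7.32 and 7.23 on tumor arrays 1 to 4 and 6.90, 7.04, 8.32 and 8.03 on nontumor arrays 1 to 4. The tumor values lay near nontumor arrays 1 and 2 and below nontumor arrays 3 and 4, for a difference of -0.43 ± 0.30 (SE) (limma adjusted p = 0.24). Bub1, another checkpoint kinase, had 7.30, 7.35, 7.60 and 7.54 on tumor arrays 1 to 4 and 5.74, 6.18, 7.46 and 7.51 on nontumor arrays 1 to 4, and its difference of 0.72 ± 0.38 (SE) was not called (limma adjusted p = 0.122). Bub1 on nontumor arrays 3 and 4 was within the tumor range, and on nontumor array 1 it was dim, so that its difference was at least 0.65. Mad2l1 had -0.03, Bub1b 0.40, Aurora kinase A (Aurka) -0.12, Aurora kinase B (Aurkb) 0.60 and survivin (Birc5) 0.12. Bub1b was dim on nontumor arrays 1 and 2, and its difference was at least 0.22 with those at their dim level. The remaining uncalled genes were cyclin B1, Ccnb1 (0.30, with a second probe set called higher), Cdca3 (0.56), the polo kinase Plk1 (0.13), the kinesins Kif11 (0.09) and Kif20a (0.30) and securin, Pttg1 (-0.05). Among the 47 genes, 12 further probe sets belonged to called genes, of which 4 were called the same way, 5 were not called and 3 were called the other way. Another 9 belonged to uncalled genes, of which 2 were called higher and 1 lower.

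The split of the nontumor group ran through the G2/M genes. Nontumor arrays 3 and 4 were both above arrays 1 and 2 for 25 of 27 G2/M genes, by a median of 0.77, and for 5 of 20 G1/S genes, by a median of 0.03. Among all genes 21.6% ran this way and 38.7% the opposite way. The median SD of a G2/M gene was 0.16 over the tumor arrays and 0.44 over the nontumor arrays, and the nontumor SD was the larger for 25 of 27. The arrays were not divided by any label, and the split was seen in these same values, so that the counts without either pair describe it and do not test it. Without nontumor arrays 1 and 2, limma called 11 G2/M genes higher in tumor and 4 lower, and without arrays 3 and 4 it called 24 higher and 0 lower. For G1/S it called 14 higher and 1 lower without arrays 1 and 2, and 15 higher and 0 lower without arrays 3 and 4. When the arrays were quantile normalized again, 9 G2/M genes were higher and 1 lower, and Cdk1 (0.68), Prc1 (0.52) and Top2a (0.50) were among those no longer called.

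**Figure D3:**
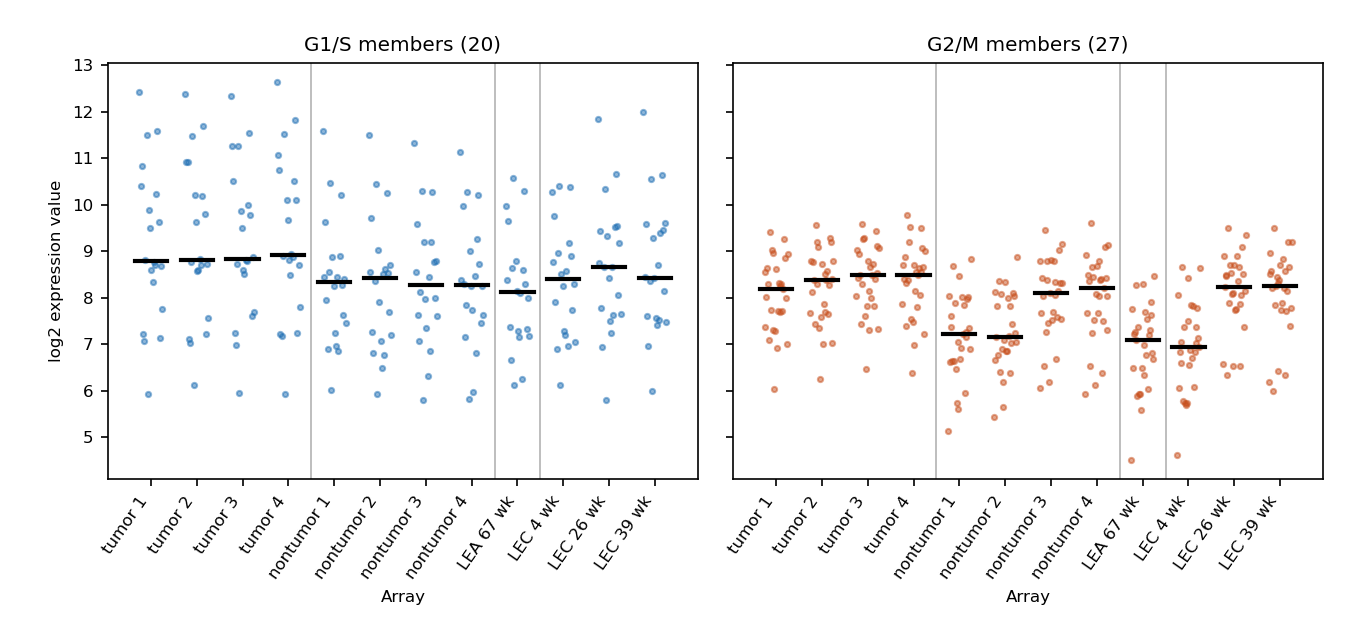
Log2 value of each G1/S gene (left) and G2/M gene (right) on the 12 arrays, with a black bar at the median of the genes. The G2/M medians of nontumor arrays 3 and 4 (8.10 and 8.21) lie near the tumor medians (8.19 to 8.495), and those of nontumor arrays 1 and 2 (7.22 and 7.15) near LEA (7.09) and LEC at 4 weeks (6.94).

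Other measures moved with the groups and with the split, and their part in these results was not tested. Nontumor spike-in controls had medians of 9.64 and 9.69 on arrays 1 and 2 and 9.25 and 9.09 on arrays 3 and 4, against 8.96 to 9.26 on the tumor arrays. The 3′ minus 5′ difference of the actin control probe sets, a sign of RNA quality, was 0.14 to 0.35 on the tumor arrays, 0.40 to 0.53 on the nontumor arrays and 0.75 on LEA, without overlap, while that of GAPDH overlapped (0.53 to 0.70 in tumor and 0.53 to 0.63 in nontumor). It was 0.36 at 4 weeks, 0.55 at 26 weeks and 0.497 at 39 weeks for actin. All 7 macrophage markers were lower on nontumor arrays 3 and 4 than on 1 and 2, as 38.7% of all genes were. Their summed linear levels were 12421 and 10449 against 14036 and 16259. Other cell types moved this way too: 5 of 8 hepatocyte markers were lower and 1 higher, 4 of 7 endothelium markers lower and 0 higher, and 3 of 4 red blood cell markers lower and 1 higher. Of 11 T, B and NK cell markers 3 were lower and 4 higher. Bile duct markers did not follow the split, with sums of 4517 and 1501 on nontumor arrays 3 and 4 and 1725 and 3237 on arrays 1 and 2. Between tumor and nontumor tissue, all 7 bile duct markers were called higher, with sums of 28333 to 33009 in tumor and 1501 to 4517 in nontumor, and all 10 matrix and stellate markers were higher, with 30967 to 42105 in tumor and 5275 to 7625 in nontumor. Of 8 hepatocyte markers 6 were lower in tumor, with sums of 17207 to 81337 in tumor and 93764 to 105166 in nontumor. Of 7 macrophage markers 4 were higher and 2 lower, with sums of 21013 to 24517 in tumor and 10449 to 16259 in nontumor, and of 11 T, B and NK cell markers 5 were higher and 2 lower. Of 4 red blood cell markers 3 were lower and 0 higher, with sums of 3538 to 7973 in tumor and 5891 to 8864 in nontumor. Endothelium had 4 of 7 markers higher and 3 lower, and neutrophils had 3 of 5 higher and 0 lower. These marker counts stand beside 38.8% of all genes called higher and 29.2% lower. No marker is at 0 on this scale. Of the bile duct markers Cdh6 was dim on all nontumor arrays, and of the matrix markers Lum was dim on 3 of the 4. In tissue RNA, fewer cells of a type and less RNA per cell cannot be told apart, and neither can the share of cells in a phase and the RNA of each such cell.

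Against LEA liver of the same age, LEC nontumor liver had 1 of the 47 genes called, Ccnd1, where 0.232% of all genes were called higher and 0.331% lower. Ccnd1 had 11.58, 11.51, 11.33 and 11.13 on nontumor arrays 1 to 4, against 9.98 on the LEA array. The difference was 1.41 ± 0.18 (SE), or 2.66-fold (limma adjusted p = 0.0138), with LEA assumed to vary like the replicated groups. It was not called when the spread came from the compared arrays alone (adjusted p = 0.151). Mcm6 came next among the G1/S genes in adjusted p, at 0.57 ± 0.11 (SE) (limma adjusted p = 0.0729), with 6.84, 6.77, 6.85 and 6.81 on the nontumor arrays and 6.25 on LEA.

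Of the G2/M genes limma called 0, and at an unadjusted p under 0.05 there were 10 higher and 1 lower, against 5.12% and 7.24% of all genes. A positive difference was seen for 26 of 27, with a median of 0.70, while the median over all genes was -0.03. All 4 nontumor arrays were above LEA for 20 of 27 G2/M genes and 9 of 20 G1/S genes, as for 20.0% of all genes, and all 4 were below LEA for 1 G2/M and 5 G1/S genes, as for 28.8% of all genes. Mki67 had 6.47, 6.90, 8.39 and 8.44 on nontumor arrays 1 to 4, against 5.93 on LEA, which was dim, and the difference was not called (limma adjusted p = 0.39). Against the dim level of the LEA array, nontumor arrays 1 and 2 were at least 1.28-fold and 1.72-fold higher and nontumor arrays 3 and 4 at least 4.84-fold and 5.01-fold. Top2a had 7.88, 8.08, 8.80 and 8.65 on the nontumor arrays, against 7.37 on LEA (difference 0.98, limma adjusted p = 0.255). The gap to LEA was wide on nontumor arrays 3 and 4 and narrow on 1 and 2. Within 0.5 log2 units of LEA lay 21 and 20 of the 27 G2/M genes on nontumor arrays 1 and 2, and 2 and 3 on arrays 3 and 4. Mcm4 and Cdc25b had negative differences of -0.73 and -0.47, neither of them called.

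The LEC arrays of 26 and 39 weeks were each set against the array of 4 weeks. There is 1 array per age, so no test was made, and a gene counts here when it differs by more than 2-fold. At 26 weeks 15 of 27 G2/M genes were past 2-fold higher, against 2.57% of all genes, and at 39 weeks 12 were, against 2.51% of all genes. Both ages shared 11 of them, where 1.97% of all genes passed at both, and 0 of the 47 genes were past 2-fold lower, against 0.563% of all genes at 26 weeks and 0.549% at 39 weeks. Of the G1/S genes Ccnd1 passed at both ages and Tk1 at 39 weeks. Median differences from 4 weeks were 1.05 at 26 weeks and 0.92 at 39 weeks for G2/M, and 0.20 and 0.22 for G1/S. Cdc25b was the G2/M gene with a negative difference, -0.26 at 26 weeks and -0.61 at 39 weeks, where it was dim.

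Mki67, Bub1, Ccnb2, Cdkn3 and Ccna2 were dim at 4 weeks, so that their differences from that age are lower bounds and have no order among them. Mki67 was 5.73 at 4 weeks, 8.53 at 26 weeks and 8.46 at 39 weeks, at least 5.2-fold and 4.95-fold above 4 weeks. Bub1 was 5.68, 8.09 and 8.32 at those ages, at least 3.84-fold and 4.5-fold higher than at 4 weeks. Ccnb2 was 6.07, 8.24 and 8.52, at least 4.26-fold and 5.17-fold higher. In each of these 3 genes both later arrays stood well above the 4 week array and close to each other. Cdkn3 was 5.79, 7.88 and 7.84, at least 3.32-fold and 3.22-fold higher. Prc1 was 7.37, 9.10 and 9.20, 3.33-fold and 3.57-fold higher. Ccna2 was 4.62, 6.56 and 6.18, and against the dim level at 4 weeks its difference was at least 1.33-fold and 1.02-fold. Cdk1, which was not dim, was 6.83, 8.499 and 8.57, 3.17-fold and 3.33-fold higher. With such genes at their lower bound, 14 and 11 G2/M genes were past 2-fold at 26 and 39 weeks. The arrays of 26 and 39 weeks differed from each other by no more than 0.5 log2 units for every one of the 47 genes. Ccnd1 was 10.28 at 4 weeks, 11.85 at 26 weeks and 12.00 at 39 weeks, 2.98-fold and 3.29-fold above 4 weeks.

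**Figure D4:**
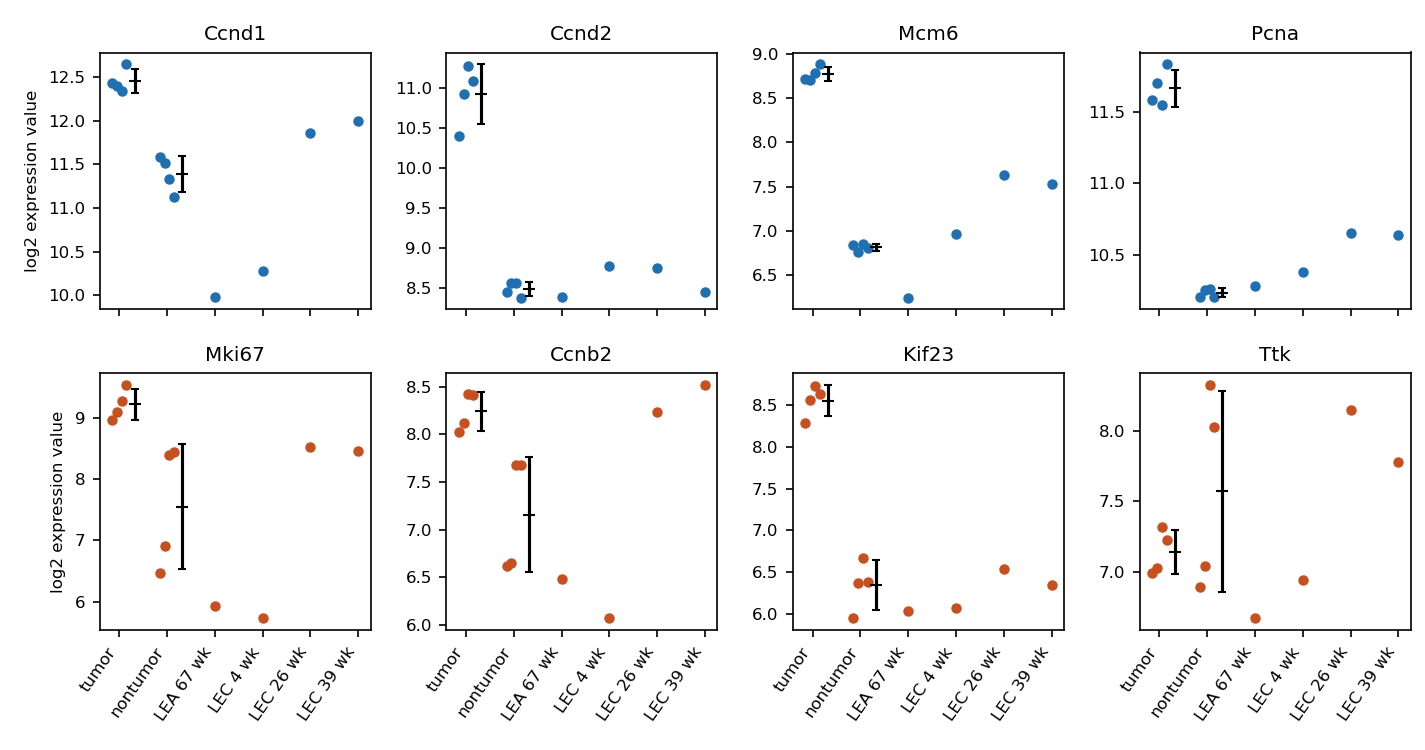
Log2 values of 8 genes by group, with each array as a point and the mean with SD beside the groups of 4 arrays. Ccnd2, Mcm6, Pcna and Kif23 are high on the tumor arrays alone, though the other probe set of Kif23, not shown, overlapped between the groups. Mki67 and Ccnb2 are also high on nontumor arrays 3 and 4 and at 26 and 39 weeks. Ttk is lower on the tumor arrays than at 26 and 39 weeks.

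Set against tumor, the arrays of 26 and 39 weeks were both below every tumor array for 15 of 20 G1/S genes and above for 3, where 38.4% of all genes were below and 36.0% above. These arrays also differed from every tumor array in Xist and Eif2s3y, so tumor and that difference cannot be told apart in this comparison. Of the 27 G2/M genes 10 were below every tumor array (37.0%) and 8 above (29.6%), which are near the shares of all genes. Below tumor were all 6 MCM genes, Pcna, Rrm1 and the 3 D cyclins. For Ccnd1 a further probe set was below too, but another was not. That one had 10.36 and 10.42 at 26 and 39 weeks, against 10.38, 10.54, 10.43 and 10.66 on tumor arrays 1 to 4. Ccnd2 was 8.77, 8.74 and 8.45 at 4, 26 and 39 weeks and 8.39 on LEA, all under its lowest tumor value of 10.40. Kif23 was 6.07, 6.54 and 6.34 at 4, 26 and 39 weeks, against at least 8.29 in tumor. For both genes every array outside tumor lay below every tumor array on the probe set used. On the other probe set of Kif23 the groups overlapped. It had 6.75, 6.93, 7.13 and 6.52 on tumor arrays 1 to 4 and 6.91, 6.75, 6.98 and 6.97 on nontumor arrays 1 to 4. Above tumor at both later ages were Ttk, Bub1, Mad2l1, Aurka, Birc5, Kif11, Kif20a and Pttg1 of G2/M, and Ccne1, Tyms and Tk1 of G1/S. Ttk was 6.94 at 4 weeks, 8.15 at 26 weeks and 7.78 at 39 weeks, against 6.996, 7.03, 7.32 and 7.23 on tumor arrays 1 to 4. Mad2l1 was 7.496, 8.10 and 8.39 at those ages, against 7.28, 7.58, 7.82 and 7.48 on the tumor arrays. Tyms was 7.75, 8.05 and 8.14, against 7.12, 7.23, 7.60 and 7.23 on the tumor arrays. Hepatocyte marker sums were 99900, 99223 and 102912 at 4, 26 and 39 weeks, and bile duct marker sums were 1558, 4642 and 3711, with 3 and 4 of 7 bile duct markers past 2-fold higher at 26 and 39 weeks. Red blood cell marker sums were 6408, 2442 and 3597, with Hbb and Alas2 of 4 markers past 2-fold lower at 26 weeks (-1.57 and -1.42) and 0 at 39 weeks. The part of these cells in the age differences was not tested.

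**Figure D5:**
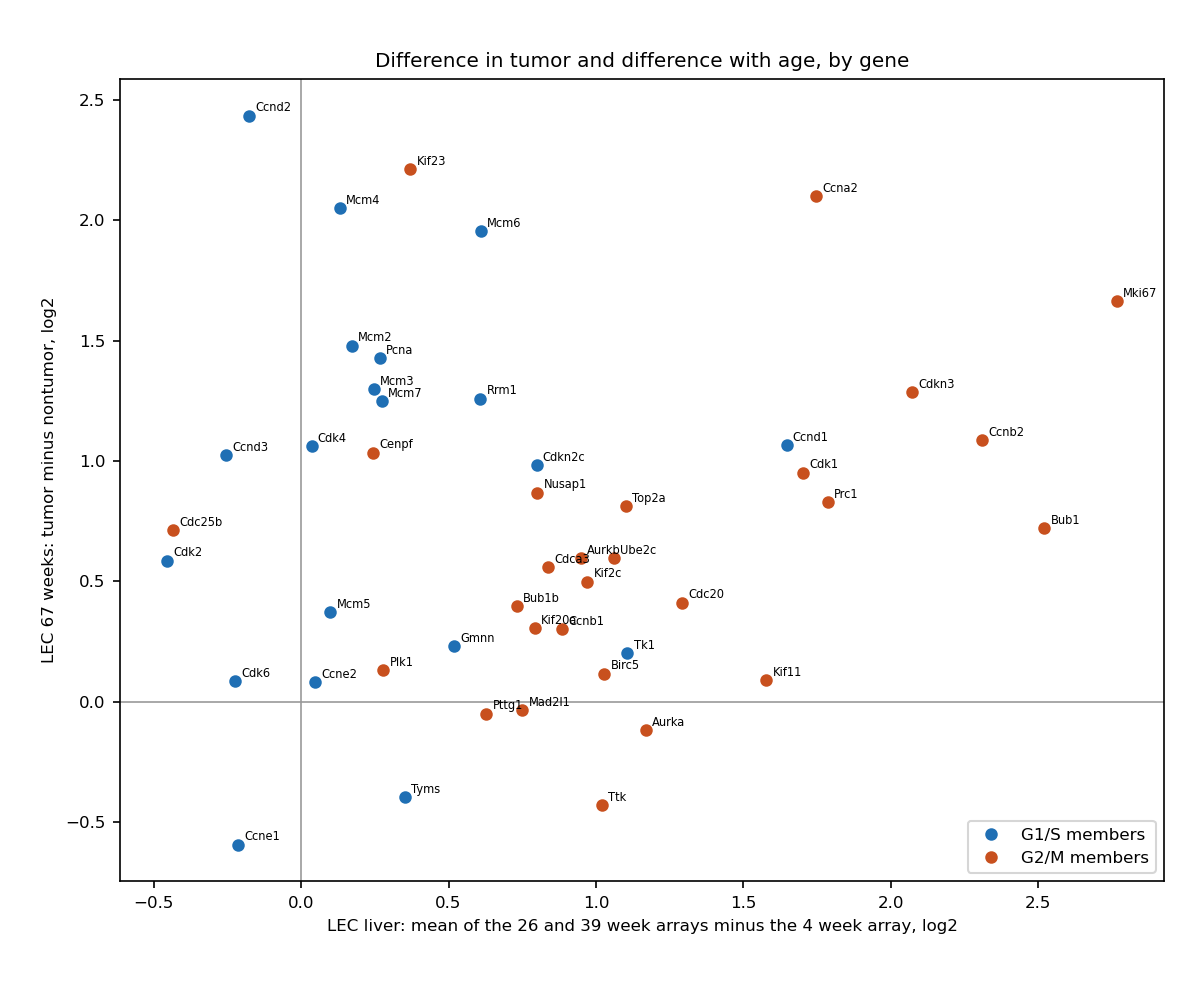
Difference of tumor minus nontumor (y axis, log2) against the mean of the 26 and 39 week arrays minus the 4 week array (x axis, log2) for the 47 genes. Mcm2, Mcm3, Mcm4, Mcm7, Pcna, Ccnd2 and Kif23 lie above 1 on the y axis and below 0.5 on the x axis, and Bub1, Kif11, Aurka and Ttk lie to the right with smaller or negative tumor differences.

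Genes around the 47 were taken from 4 further lists, whose counts stand beside 38.8% of all genes called higher and 29.2% lower in tumor, with a median of 0.07. Of 36 other genes of the replication machinery 20 were higher (55.6%) and 5 lower in tumor, with a median of 0.30 and 0 past 2-fold at 26 or 39 weeks. The polymerase subunit Pola1 was dim on 2 nontumor arrays and at least 4.02-fold higher with those at their dim level, DNA ligase Lig1 was higher by 1.53, Pold2 by 1.61 and Pola2 by 1.19, while Pold4, a small subunit of polymerase delta, was lower (-1.47). Of 44 other mitosis genes 15 were higher (34.1%, under the share of all genes) and 5 lower in tumor, with a median of 0.23, and 10 and 13 were past 2-fold higher at 26 and 39 weeks, against 2.57% and 2.51% of all genes. Among them lamin Lmnb1 (2.01), tubulin Tubb5 (1.78), Racgap1, a partner of Kif23 (1.76), stathmin Stmn1 (1.48) and Ckap5 (1.30) were higher in tumor. In this list 32 of 44 genes had nontumor arrays 3 and 4 above arrays 1 and 2, as for 21.6% of all genes. Of 22 regulators of the RB, E2F, MuvB and FOXM1 families 14 were higher (63.6%) and 2 lower in tumor. The lower ones were the MuvB subunit Lin54 (-0.65) and Mybl2, which is B-Myb (-0.18). Of their partners, Lin9 (1.23) and Foxm1 (0.46) were higher, and Lin37 (-0.24) and Lin52 (0.18) were not called. Uhrf1 was dim on 3 nontumor arrays and at least 3.34-fold higher with those at their dim level. Others higher were the RB relative Rbl1 (1.55), E2f5 (1.42), the E2F partner Tfdp1 (1.32) and E2f2 (1.30). Of 19 CDK inhibitors and checkpoint genes 9 were higher (47.4%) and 1 lower in tumor. The inhibitor Cdkn1b (p27) was higher by 1.502, Gadd45b by 0.94, Cdkn1c (p57) by 0.86 and the Cdk1 inhibitor kinase Wee1 by 0.83, while Gadd45g was lower (-0.77). Against LEA, limma called 0 genes of each of these 4 lists in nontumor tissue. At an unadjusted p under 0.05, 10 of 44 mitosis genes were higher than in LEA and 0 lower, and in the other lists 2 to 3 were higher and 0 to 3 lower, where 5.12% of all genes were higher and 7.24% lower.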

How the data were processed

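Total RNA of rat liver (3 µg) was labelled with biotin and hybridized to 12 Affymetrix arrays, per the labels' protocols. The deposited values are log2 expression levels, for which the submitters' processing notes name RMA and R 2.6.1. It is not known whether RMA took all arrays at a time (array medians 7.39 to 7.51), and precision is limited by how few arrays there are.

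Of 31099 probe sets 57 were controls. The other 31042 entered one model of group means over 12 arrays (limma 3.58.1, lmFit and eBayes, R 4.3.3, 6 residual and 2.84 prior degrees of freedom), with two-sided p-values adjusted by Benjamini-Hochberg and a threshold of 0.05. Platform annotation gave 20826 probe sets a single gene, 436 several and 9780 none listed here, and 20758 Entrez identifiers were matched to current symbols. The brightest probe set over the 12 arrays stood for a gene. Members and lists were chosen with earlier results of these data known. List entries numbered 261, of which 227 matched. Every member is named. Values on each array are given for the 8 G2/M and 6 G1/S genes with the largest called tumor differences, called genes against the majority of their phase, the gene called against LEA, the 6 with the largest age differences and Top2a. Other lists name the 5 largest called tumor differences. The regulator list also names its MuvB, B-Myb and FOXM1 genes, which were added after their values were seen. The values of Ttk and Mad2l1 on single arrays were chosen after they were seen. Cdc6 and Tpx2 matched no annotated probe set used here, and those of Rrm2 are shared with another gene.

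The fit was also tested on simulated data over 31042 probe sets. Of sets of 50 shifted by 0.5, 1, 2 and 4 log2 units it recovered 22, 38, 47 and 49 between tumor and nontumor, with 11 false among 167 calls, and 1, 24, 46 and 49 between nontumor and LEA, with 13 false among 133. Only these sets were shifted, and the noise was independent, while in the data 38.8% of genes were called higher and 29.2% lower in tumor. The simulated rates therefore do not give the rates of the tumor calls reported here. Alternatives changed the scaling, filter, prior, weights, probe sets, arrays in the fit, block by title number and threshold. Leaving out nontumor arrays 1 and 2, or 3 and 4, was chosen after seeing the data. Figures were drawn with matplotlib 3.10.9.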

Additional observations from a re-analysis of the deposited data

Results flagged for a closer look

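In 5 of the 94 groups of 4 arrays (47 genes in tumor and in nontumor tissue) 1 array stood far from the other 3 by Dixon's test, and chance marks about 1 in 20 groups. All 5 were in tumor. Cdk6 was 6.11 on tumor array 2, with the next value at 5.94. Mcm3 was 8.80 on tumor array 4, with the next at 8.60. Tk1 was 8.87 on tumor array 3, with the next at 8.72. The low values came from tumor array 1, Cdc25b at 7.09 with the next at 7.40 and Cdkn3 at 7.73 with the next at 8.29.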

How the results depend on the processing

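Of the 30 genes called between tumor and nontumor tissue, 20 kept direction and call under every setting run for them. The settings numbered 17 for Mcm4, Ccna2, Cdc25b, Cdkn3 and Kif23 and 18 for the rest. Those named were left out by the filter, which kept probe sets whose mean over the 12 arrays exceeded the median of all. The other 10 lost the call under at least 1 setting (Cdk1, Cdk2, Mcm5, Prc1, Top2a, Cdc20, Ube2c, Kif2c, Ccne1 and Tyms). None of the 30 changed sign. G2/M genes higher in tumor, 14 as reported, numbered 9 after quantile normalization again, 24 without nontumor arrays 3 and 4, 6 with a 2-fold threshold added and 11 to 19 with single arrays left out. G2/M genes lower, 0 as reported, numbered 1 after quantile normalization again and 4 without nontumor arrays 1 and 2. G1/S genes lower, 2 as reported, numbered 0 to 2 with single arrays left out, 1 without nontumor arrays 1 and 2, and 0 without arrays 3 and 4 or with a 2-fold threshold. Against LEA, G1/S genes higher in nontumor tissue, 1 as reported, numbered 2 after quantile normalization again, with array weights or without nontumor arrays 1 and 2, and 0 with the compared arrays alone. Without nontumor arrays 1 and 2, 2 G1/S genes were lower and 19 G2/M genes higher than in LEA, a count fixed in part by the split having been seen in these values. For the ages a 1.5-fold threshold gave 6 G1/S and 23 G2/M genes higher at 26 weeks, 22 G2/M genes higher at 39 weeks, and 1 G1/S and 1 G2/M gene lower at 39 weeks, and the mean of a gene's probe sets gave 1 G1/S gene higher at 39 weeks. The title numbers as a replicate block gave 14 G1/S and 18 G2/M genes higher and 2 G1/S genes lower, and added 4 calls. Deviations of same-numbered tumor and nontumor arrays correlated by -0.08 to 0.14. Of the 4 tumor arrays, 3 matched the nontumor array of their own number best. With so few pools this cannot decide whether the numbers mark pairs, and the fit reported above does not use them. Differences that changed sign had not been called as reported, and 2 passed the threshold with the opposite sign: Mad2l1 without nontumor arrays 3 and 4 (adjusted p = 0.0284, limma) and Kif11 without nontumor arrays 1 and 2 (adjusted p = 0.027). Tumor minus nontumor became -0.0749 for Tk1, -0.153 for Plk1, -0.16 for Birc5 and -0.0975 for Kif11 after quantile normalization again. With array medians subtracted it was -0.0215 for Ccne2, -0.0162 for Cdk6 and -0.0122 for Kif11. The mean of probe sets gave -0.155 for Tk1, 0.0059 for Mad2l1 and -0.107 for Kif11, and array weights gave 0.124 for Mad2l1 and 0.0271 for Aurka. Without nontumor arrays 1 and 2 it was -0.0524 for Ccne2, -0.087 for Ccnb1, -0.0386 for Bub1, -0.0353 for Plk1, -0.267 for Birc5 and -0.421 for Kif11, and without arrays 3 and 4 it was 0.482 for Mad2l1, 0.296 for Aurka, 0.174 for Ttk and 0.0941 for Pttg1. With single arrays left out, Mad2l1 ranged from -0.213 to 0.142, Aurka from -0.285 to 0.0453, Birc5 from -0.0145 to 0.246, Kif11 from -0.0891 to 0.314 and Pttg1 from -0.104 to 0.0058. For nontumor minus LEA, Mcm2 ranged from -0.0904 to 0.0272 with single arrays left out, and Pcna was 0.0275 after quantile normalization again. The cause of these changes was not tested. Quantile normalization again and median subtraction moved the tumor median of all genes by -0.18 and -0.10, against which a small tumor difference has to be read. Dim genes have no exact difference, lone arrays have no spread of their own, and arrays 3 and 4 of the nontumor group could not be tied to any label.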

Other observations

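Cdkn1a and Ccng1 of the CDK inhibitor and checkpoint list were past 2-fold higher at 26 and 39 weeks than at 4 weeks, and were picked after their values were seen. Cdkn1a (p21), which blocks CDKs, was 8.53 at 4 weeks, 10.91 at 26 weeks and 11.42 at 39 weeks. Ccng1, like Cdkn1a a known p53 target, was 9.83, 11.33 and 11.61 at those ages. Other p53 targets of the list differed less, with Mdm2 at 0.95 and 1.02 and Gadd45a at 0.67 and 0.65 above 4 weeks. Cdkn1a was not called between tumor and nontumor tissue (-0.53), nor was Ccng1 (0.20). Of the 19 CDK inhibitors and checkpoint genes 4 were past 2-fold higher at 26 weeks and 6 at 39 weeks, against 2.57% and 2.51% of all genes, and 0 lower. There is 1 array per age, so these are values without a test, and they carry the same difference in Xist and Eif2s3y as the other age comparisons.

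Mitosis genes outside the 47 also differed with age. Ect2, which sets the plane of cell cleavage, was 5.73 at 4 weeks (dim), 8.49 at 26 weeks and 8.77 at 39 weeks, the condensin subunit Smc2 was 6.17, 8.47 and 8.61, and the kinetochore subunit Spc24 was 7.07, 9.09 and 9.17. Ect2 was higher in tumor than in nontumor tissue by 1.11, while Smc2 (0.79) and Spc24 (-0.36) were not called.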
